A study of Mus musculus with 24 samples.

Results

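Genes for the factors of translation initiation and elongation were taken by symbol from the RNA and footprint tables of mouse E14 embryonic stem cells. The rule takes symbols that begin with Eif1 to Eif6, Eef1 or Eef2 and leaves out the eIF2 kinases (Eif2ak) and the eIF4E-binding proteins (Eif4ebp), and it uses no measured value. It gave 56 of the 23917 genes listed. They were grouped, largely by symbol, into 8 for start codon selection and subunit joining, 6 in or beside the eIF2 ternary complex, 5 in its exchange factor eIF2B, 14 in eIF3, 13 in the eIF4 group and 10 for elongation. The elongation group holds 2 genes that are not elongation factors themselves, Eef1e1, a scaffold of the aminoacyl-tRNA synthetase complex, and Eef2k, the kinase that inactivates eEF2. Other groups also go by symbol, so Eif1ad and Eif6 stand under start selection and joining and Eif4a3 under eIF4 without a role there being shown. The cells, an established line, had been transfected with an oligonucleotide containing locked nucleic acids that is antisense to tRF-GG, a fragment of glycine tRNA (called inhibitor here), with an esiRNA pool against GFP, or mock-transfected. Each transfection had 4 footprint libraries and 4 RNA libraries, 24 in all, and a library is named here by its transfection, its assay and the number in its label. Footprints were RNAs of 26 to 32 nucleotides from ribosomes recovered on a sucrose gradient after RNase digestion, and RNA libraries were made from Trizol-isolated RNA. All groups are cultures of the same line, and the labels do not say whether libraries of a group came from separate cultures, so p-values measure only the spread between these libraries.

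In initiation, eIF2 brings the initiator tRNA to the small ribosomal subunit in a ternary complex with GTP, and eIF2B exchanges the spent GDP for GTP. The large complex eIF3 sits on the small subunit, the eIF4 factors bind the mRNA cap and unwind the leader, eIF1, eIF1A and eIF5 act in recognition of the start codon, and eIF5B joins the large subunit. In elongation, eEF1A carries each aminoacyl-tRNA to the ribosome, eEF1B recharges eEF1A with GTP, and eEF2 moves the ribosome to the next codon. Several of the mRNAs for these factors begin with a run of pyrimidines, the terminal oligopyrimidine or TOP motif, through which mTOR signalling controls their translation.

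Values are FPKM (fragments per transcript length and per mapped fragments of the library) scaled between the libraries of a table, called scaled FPKM. The tables were scaled separately, so a footprint level is set against an RNA level only through ratios from which the median of all genes was taken. Depth relative to the deepest library was 21.1% to 100% in footprints and 7.18% to 100% in RNA, lowest in inhibitor footprint 3 and mock RNA 3. How many reads a library holds is unknown, so intervals for counting error cannot be given. The ribosomal precursor Rn45s took 62.7% of the summed FPKM in inhibitor RNA 1, 18.1% in GFP RNA 1 and 39.1% in mock RNA 1, while the remaining RNA libraries had 1.68% to 5.25%. All 10 markers of embryonic stem cells were present, with a summed RNA level of 2607 to 3717 scaled FPKM in inhibitor, 2795 to 3676 in GFP and 2590 to 3811 in mock libraries. Library numbers did not all match across the assays, over 4480 genes, each centred on its group mean. Inhibitor footprint 1 and GFP footprint 1 correlated best with the RNA libraries numbered 2 (r = 0.40 and 0.51 across genes). Inhibitor footprint 2 and GFP footprint 2 did so with those numbered 1 (0.30 and 0.33). Best with their own number were GFP footprints 3 and 4 (0.26 and 0.42) and mock footprints 1, 2 and 3 (0.37, 0.25 and 0.21). Inhibitor footprints 3 and 4 and mock footprint 4 went with other numbers. No comparison here pairs a footprint library with an RNA library by number.

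The elongation factor Eef1a1, which carries aminoacyl-tRNAs, had by far the highest level of the group. In the 8 control libraries of each table (GFP and mock together) its mean footprint level was 2459 ± 623 scaled FPKM and its mean RNA level 3281 ± 216 (SD, n = 8 each), the 3rd highest of all genes in footprints and the 7th in RNA. It held 39.9% of the summed footprint level of the 56 genes and 37.8% of their summed RNA level. The next highest were the helicase Eif4a1, which unwinds mRNA leaders (footprints 414 ± 61.9, RNA 535 ± 47.4), Eif5a, a hypusine-bearing factor that relieves stalled ribosomes (359 ± 61.2 and 483 ± 99.6), the translocase Eef2 (296 ± 43.1 and 616 ± 104) and the eEF1B subunit Eef1g (279.9 ± 28.4 and 516 ± 123). With Eef1a1 these 4 made up 61.8% of the footprint sum and 62.5% of the RNA sum. The control libraries of these 4 genes overlap between neighbours in both assays, so their order is not resolved beyond the spread.

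**Figure D1:**
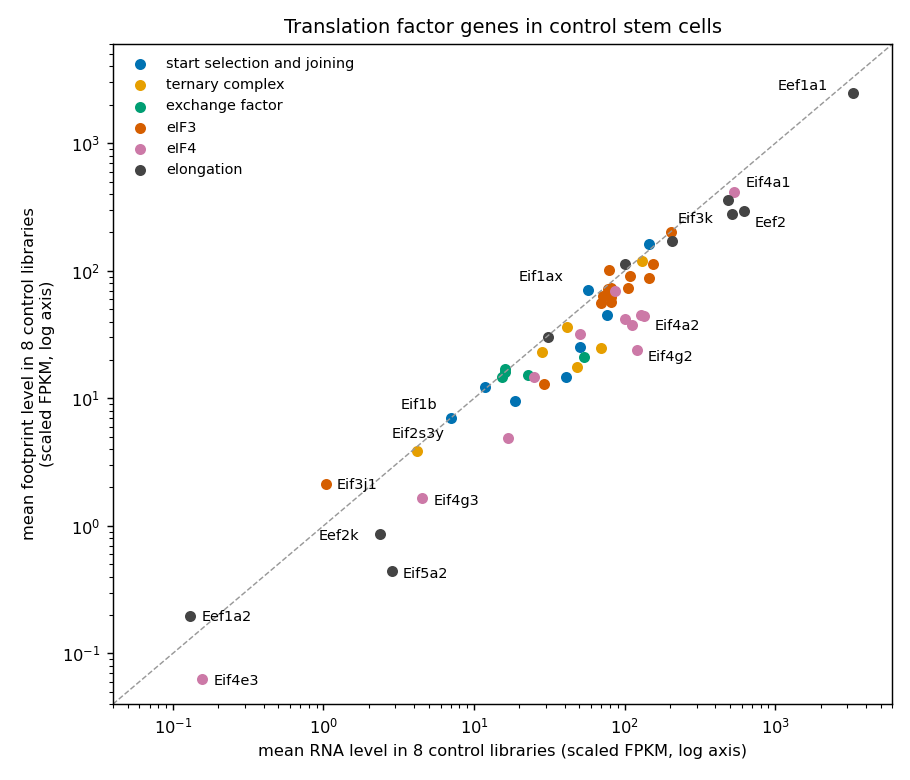
Mean level of each translation factor gene in the 8 control RNA libraries (x axis) and the 8 control footprint libraries (y axis), in scaled FPKM on log axes, coloured by role, with the dashed line at equal values. Eef1a1 stands at the top right, and Eif4e3 and Eef1a2 at the bottom left. Eif4e1b, listed at 0 in the control footprint libraries, cannot be drawn.

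At the other end, 3 genes stayed below the mean of 0.5 scaled FPKM needed for testing in both tables. They were Eef1a2, the eEF1A form of muscle and neurons (0.197 scaled FPKM in footprints, 0.131 in RNA), Eif4e3, a relative of the cap-binding protein (0.0625 and 0.157), and Eif4e1b, its form in oocytes (listed at 0, and 0.159). Eif5a2, a second eIF5A gene, passed in RNA only, with 0.445 scaled FPKM in footprints and 2.83 in RNA. Thus 52 genes were tested in footprints and 53 in RNA.

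Where a factor has a pair of genes, the same one was higher in every control library in most pairs. The start codon fidelity factor Eif1 was above Eif1b in 8 of 8 libraries of each assay, 23.1-fold by footprint means and 20.7-fold by RNA means. Eif4a1 exceeded Eif4a2, a helicase of like sequence, 9.28-fold in footprints and 4.0-fold in RNA, in 8 of 8 libraries each. Eif4g1, the scaffold that joins cap-binding protein and helicase, exceeded Eif4g3 25.2-fold and 22.3-fold. The cap-binding relative Eif4e2 was 2.18-fold above Eif4e in footprints (8 of 8 libraries) and 2.04-fold in RNA (7 of 8). Eif2s3x and Eif2s3y, the X- and Y-linked genes for the gamma subunit of eIF2, stood 6.47-fold apart by footprint means and 16.6-fold by RNA means. Eif2s3x was above in 8 of 8 libraries of each assay, with a footprint ratio of 3.13 to 17.5 by library. The RNA fold is unstable, since Eif2s3y RNA was 13.5 scaled FPKM in GFP 2, 8.49 in mock 2 and 0 in mock 3, with a control median of 1.99. RSEM divides reads shared by near-identical copies by an estimate, so ratios within such pairs carry that uncertainty.

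In 2 further pairs the gap was not alike in the assays. Eif1ax, the X-linked gene for eIF1A, was above its autosomal copy Eif1a in 8 of 8 footprint libraries, with 70.4 ± 7.32 against 25.1 ± 4.75 scaled FPKM (SD, n = 8). In RNA the means were 56.8 ± 11.1 and 50.4 ± 18.9, and Eif1ax was the higher in 6 of 8 libraries. Eif4g2, a relative of eIF4G that lacks the cap-binding protein's docking site, was above Eif4g1 in 0 of 8 footprint libraries (23.7 ± 3.02 against 41.8 ± 8.26) and in 7 of 8 RNA libraries (121 ± 25 against 101 ± 15.9).

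The footprint-to-RNA ratio in control cells asks which of these mRNAs carried more ribosomes per mRNA than the median gene. On the log2(scaled FPKM + 1) scale, with the median of the 10489 genes tested in both assays set to 0, 35 of the 52 translation factor genes differed from it by limma at an adjusted p under 0.05, 26 above and 9 below. Of all genes 51.9% passed, 24.2% above and 27.7% below. The median of the 52 genes was 0.38, with quartiles of -0.15 and 0.76. FPKM divide by the length of the whole transcript while footprints lie on the coding part, so the ratio also carries the coding share of each transcript, which was not measured here.

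Differences between the role groups were not tested. In eIF3, 9 of 14 genes lay above the median gene and 0 below, and the group median was 0.53. The 14 include Eif3j1, tested only through 1 mock library of each assay, and Eif3j2, listed at 0 in mock footprint 1. In the eIF4 group 2 of 11 lay above and 5 below, with a group median of -0.45. Elongation had 5 of 8 above and 0 below (group median 0.38), start selection and joining 4 of 8 above and 1 below (0.45), the ternary complex 3 of 6 above and 2 below (0.60), and eIF2B 3 of 5 above and 1 below (0.79). These counts moved with the processing, and the cause was not tested. With genes of at least 5 scaled FPKM alone, 16 of 47 members were above and 10 below, beside 23.2% and 25.6% of all genes. Without a filter it was 13 and 16 of 55, beside 30.8% and 31.6%. A pseudocount of 5 gave 11 and 11 of 52, beside 26.2% and 27.6%. Without a filter and with a pseudocount of 5, the members' share above was under that of all genes. FPKM as deposited gave 11 and 2 of 52, beside 12.9% and 15.0%. The members' medians were 0.17, 0.07, 0.09 and 0.37 in this order. Under the 9 alternatives run, the median of eIF3 lay between 0.20 and 0.72 with 2 to 12 genes above and 0 below, and the median of the eIF4 group between -0.68 and -0.41.

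**Figure D2:**
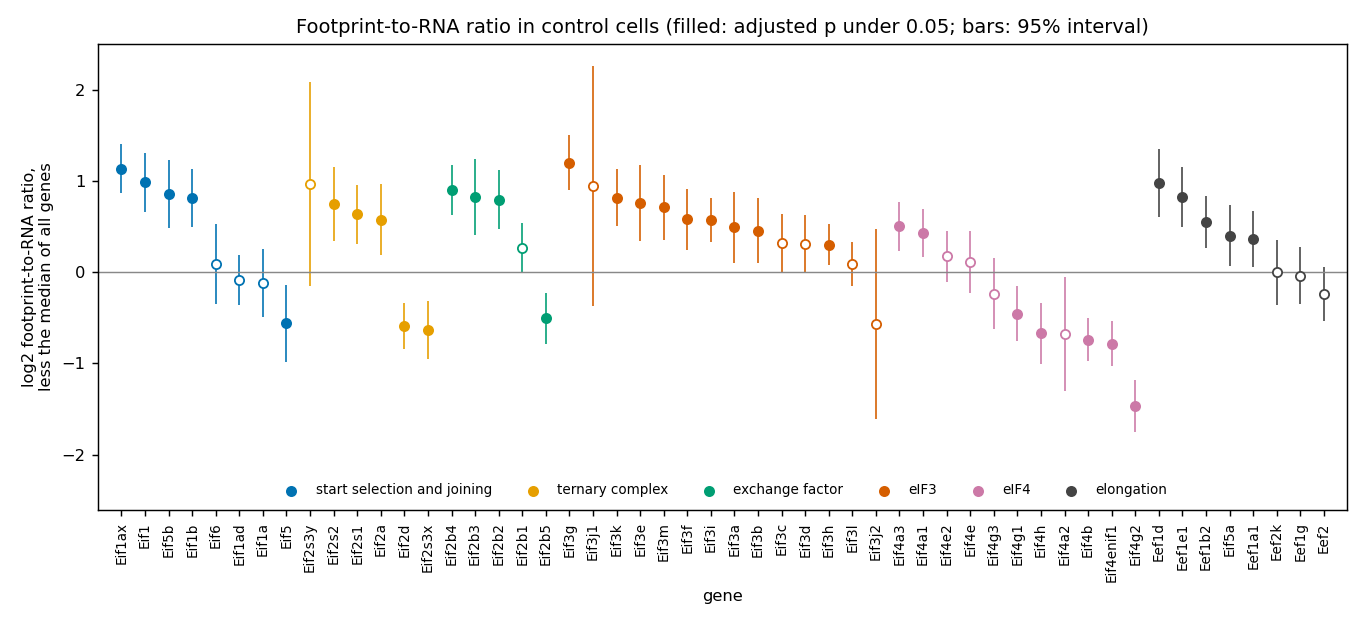
Footprint-to-RNA ratio of each tested gene in control cells (y axis, log2, less the median of all genes), by gene and coloured by role, from 8 footprint and 8 RNA libraries. Points are limma estimates, bars are 95% intervals, and filled points passed an adjusted p of 0.05. Most eIF3 and elongation genes lie above 0, while Eif4g2 lies lowest at -1.47.

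The highest ratio was that of Eif3g, an eIF3 subunit with an RNA recognition motif. Its footprint level was 83.5 to 125 scaled FPKM (median 97.3) and its RNA level 49.8 to 96.5 (median 79.9) over 8 control libraries each. Its ratio was 1.20 (SE 0.14, limma adjusted p = 2.61e-06). Eif1ax followed, with footprints of 53.5 to 76.9 (median 71.7), RNA of 45.8 to 75.3 (median 52.0) and a ratio of 1.13 (SE 0.13). Next came Eif1 at 0.98 (SE 0.15), the exchange subunit of eEF1B Eef1d at 0.97 (SE 0.18) and the regulatory eIF2B subunit Eif2b4 at 0.90 (SE 0.13).

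The lowest ratio was that of Eif4g2. Its footprint level was 19.7 to 29.2 scaled FPKM (median 23.8), and its RNA level 90.7 to 171 (median 119). The ratio was -1.47 (SE 0.14, limma adjusted p = 1.49e-07). The helicase cofactors Eif4b (-0.74, SE 0.11) and Eif4h (-0.67, SE 0.16) and the eIF2 gamma gene Eif2s3x (-0.63, SE 0.15) also passed. Eif4a2 had -0.68 (SE 0.30) and did not pass (limma adjusted p = 0.0627). Eif4enif1, which binds cap-binding protein and takes it to the nucleus and to processing bodies, had -0.78 (SE 0.12) at a footprint mean just under the 5 scaled FPKM asked of the genes ranked here.

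The bases around transcript starts were searched for pyrimidine runs, since TOP mRNAs begin with one. The sequences below are from RefSeq (GRCm38.p6) and run from 10 bases before to 20 bases from a start in its promoter table, on the strand of the gene. In Eif2b5 and Eif2s3y that start lies 22 and 33 bases inside the outer end of the annotated gene, and in the other 4 genes at it. They show both Eif2s3 genes, a pair of genes on either side of the ratio (Eif3f and Eif2b5), and the main elongation factors, with the longest run of C and T in capitals.
Eif2s3x (chrX:94212632-94212661, minus strand): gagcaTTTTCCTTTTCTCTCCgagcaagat
Eif2s3y (chrY:1010585-1010614, plus strand): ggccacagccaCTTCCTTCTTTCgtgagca
Eif3f (chr7:108934405-108934434, plus strand): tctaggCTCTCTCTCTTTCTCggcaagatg
Eif2b5 (chr16:20498807-20498836, plus strand): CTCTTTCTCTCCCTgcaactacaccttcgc
Eef1a1 (chr9:78481705-78481734, minus strand): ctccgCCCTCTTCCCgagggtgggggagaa
Eef2 (chr10:81176621-81176650, plus strand): aaggccgggcgttgacgtcagcggTCTCTT

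The run was 16 bases in Eif2s3x, 15 in Eif3f, 14 in Eif2b5, 12 in Eif2s3y and 10 in Eef1a1. In Eif2b5, 10 of these bases lie before the start and 4 from it on, while in Eif2s3y all 12 lie after the start. In Eef2 the window ends with a run of 6. A run of at least 8 C or T bases on the strand of the gene was present in 9 of the 44 translation factor genes with such a window (20.5%), against 13.0% of 27025 genes in the table. Where a gene had several starts in the table (6 of the 44), the window with the longest run was taken. With the outermost start alone the counts were 8 of 44 (18.2%) and 11.2%. Of these 9, the ratio was above the median gene in Eef1a1 (0.36), Eif2b2 (0.79) and Eif3f (0.58), below it in Eif2b5 (-0.51), Eif2s3x (-0.63) and Eif4enif1 (-0.78), and did not pass in Eif2s3y, Eif3l and Eif4e. A run is a match of letters in this window and does not show a TOP motif in use.

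The subunits of a complex were compared by their FPKM, which are per length. In eIF2B, the 5 subunits had footprint means between 14.7 (Eif2b2) and 21.1 scaled FPKM (Eif2b5), a coefficient of variation over subunits of 15.1%. Their RNA means ran from 15.3 (Eif2b2) to 53.5 (Eif2b5), a coefficient of variation of 66.1%. The gap in RNA was that of Eif2b5, the catalytic subunit: its RNA was 41.5 to 63.0 scaled FPKM (median 54.6) over the 8 control libraries, above every value of the other 4 subunits, and its footprints were 14.6 to 26.1 (median 21.7), which overlapped theirs. The ratio of Eif2b5 was -0.51 (SE 0.13), while Eif2b2, Eif2b3 and Eif2b4 had 0.79 to 0.90. That of Eif2b1 was above 0 but did not pass.

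In eIF3, 12 subunits (without the pair Eif3j1 and Eif3j2) varied about equally in both assays, with a coefficient of variation of 45.2% in footprints and 39.7% in RNA. Eif3k, a peripheral subunit, was the highest in both, with 199.6 ± 26.0 and 202 ± 41.4 scaled FPKM, and the scaffold Eif3a the lowest, with 56.1 ± 15.3 and 69.7 ± 16.9 (SD, n = 8). The 3 subunits of eIF2 spread more in footprints (85.0%) than in RNA (56.2%), with Eif2s3x lowest in footprints at 25 scaled FPKM and the beta gene Eif2s2 highest at 118. Those of eEF1B spread less in footprints (45%) than in RNA (78.7%).

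**Figure D3:**
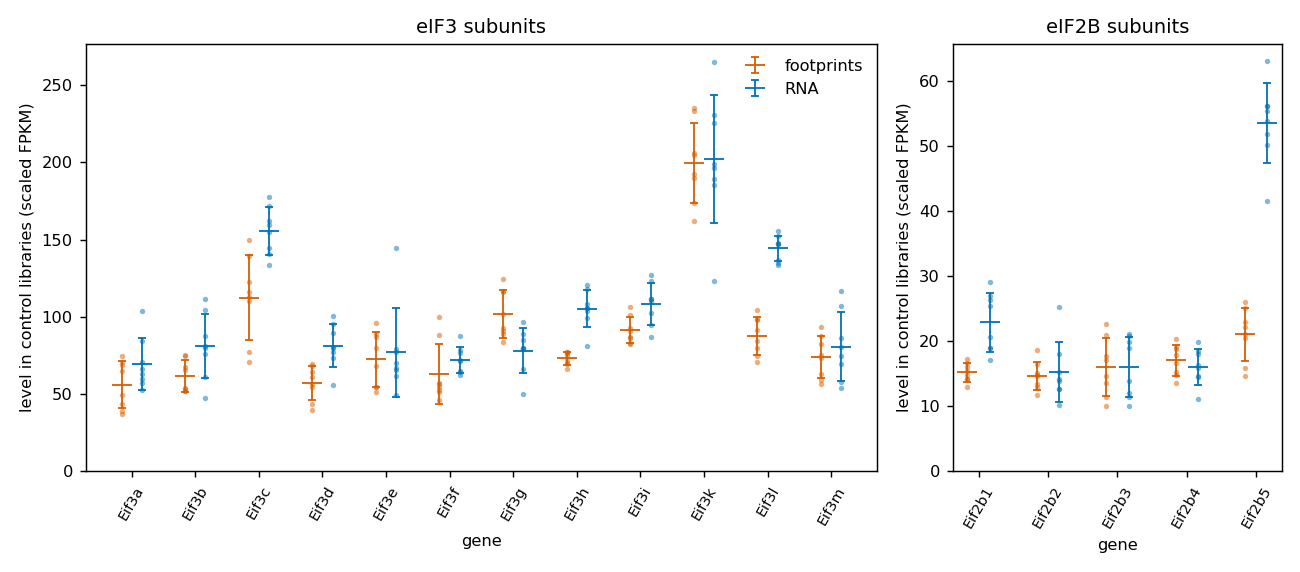
Levels of the eIF3 and eIF2B subunit genes in control cells (y axis, scaled FPKM) by gene, with footprints in orange and RNA in blue. Dots are the 8 control libraries of each assay, lines the mean and bars the SD. Eif2b5 RNA stands above the other eIF2B subunits while its footprints overlap theirs.

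The comparisons of inhibitor with control cells ask whether blocking tRF-GG changes the RNA or the ribosome occupancy of the factors themselves. None of the 56 genes passed an adjusted p of 0.05 in limma in any of them. In footprints 0 of 52 passed against GFP and 0 of 52 against mock, where 0.00938% and 0% of all genes passed. In RNA 0 of 53 passed against each control, where 0.0159% (GFP) and 0.0239% (mock) of all genes passed, and in the footprint-to-RNA ratio 0 of 52 against each, where 0% of genes passed. At an unadjusted limma p under 0.05 the count was also 0 in each of these 6 comparisons. The share of all genes under that p was 3.31% (GFP) and 3.56% (mock) in footprints, 3.11% and 3.66% in RNA, and 0.715% and 0.906% in the ratio. With the library number as a block, 0 members passed the adjusted p, beside 0.0750% (GFP) and 0.0188% (mock) of all genes in footprints, 0.255% and 0.271% in RNA and 0% in the ratio. With that block 2 of 52 genes had an unadjusted p under 0.05 in footprints against GFP (Eif2a and Eif3h, where 7.75% of all genes did) and 3 of 52 against mock (Eif1, Eif1ax and Eif5, where 7.91% did), all of them higher with the inhibitor. In RNA and in the ratio it was 0, beside 6.86% (GFP) and 8.43% (mock) of all genes in RNA and 1.98% and 2.85% in the ratio. Inhibitor and mock footprints deviated together by number for 3 and 4 (r = 0.60 and 0.38 across genes), against 0.13 and -0.18 for 1 and 2. Inhibitor footprint 1 went with mock 2 (0.77) and inhibitor footprint 2 with mock 1 (0.56). For 1 and 2 the block there rests on the number alone. Mock libraries are part of the blocked fit, so this also enters its comparison with GFP. With the block over inhibitor and GFP alone, 0 members passed the adjusted p in footprints, beside 0.422% of all genes. The comparisons with GFP and with mock use the same inhibitor libraries. In bulk libraries, fewer cells of a type and less RNA per cell cannot be told apart.

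The median difference of the group was small beside the error of a single gene, a median SE of 0.18 in footprints, 0.24 in RNA and 0.31 in the ratio. In footprints the median log2 difference of inhibitor from GFP was 0.02 (0.01 over all genes), with 30 genes above 0 and 22 below, and from mock 0.04 (0.00), with 34 above and 18 below. In RNA it was -0.03 from GFP (-0.01 over all genes) and -0.01 from mock (-0.01). In the ratio it was 0.08 from GFP (0.03) and 0.04 from mock (0.01). The 95% intervals were taken gene by gene from the fit without the block, without adjustment, on the log2(scaled FPKM + 1) scale. A difference of 1 there is 2-fold at high levels and a larger change at low levels. The interval lay within a difference of 1 in either direction in 49 of 52 genes in footprints against each control. In RNA it did so in 49 and 48 of 53, and in the ratio in 41 and 44 of 52. Within a difference of 0.58, 1.5-fold at high levels, it lay in 35 and 39 genes in footprints. In RNA these were 23 and 22, and in the ratio 10 and 12.

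The RNA medians moved with the scaling. With FPKM as deposited the members' median was -0.53 from GFP and -0.28 from mock in RNA, beside -0.39 and -0.19 over all genes, and no gene passed. Quantile normalization turned the sign of the members' medians, to 0.01 from GFP and 0.03 from mock.

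Marker lists of other cell types had a higher highest sum in inhibitor libraries, with ranges that overlapped the controls. Each end of a range is the value of 1 library. For primitive endoderm and trophoblast the lowest RNA sums of the groups lay closer together than the highest. Of the 2-cell-like markers 8 of 9 reached a mean of 1 scaled FPKM in RNA. Their summed RNA level was 16.6 to 142 in inhibitor libraries, 3.12 to 30.8 in GFP and 4.94 to 30.9 in mock. Their summed footprint level was 14.4 to 126 in inhibitor, 1.55 to 20.4 in GFP and 0.734 to 28.3 in mock. Of the 6 fibroblast feeder markers 1 reached that mean in each assay and Lum was at 0 in all libraries. Their summed RNA level was 4.74 to 13.3 in inhibitor, 2.98 to 6.68 in GFP and 2.91 to 5.78 in mock, and their footprint level 3.83 to 7.75 in inhibitor, 1.61 to 4.53 in GFP and 2.25 to 4.41 in mock. For primitive endoderm (5 of 6 markers at that mean) the RNA sum was 4.45 to 23.5 in inhibitor, 4.33 to 15.1 in GFP and 4.35 to 15.7 in mock. For trophoblast (3 of 6) it was 5.13 to 20.7 in inhibitor, 4.36 to 13.8 in GFP and 3.86 to 12.3 in mock. The part of these lists in the values given here was not tested.

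**Figure D4:**
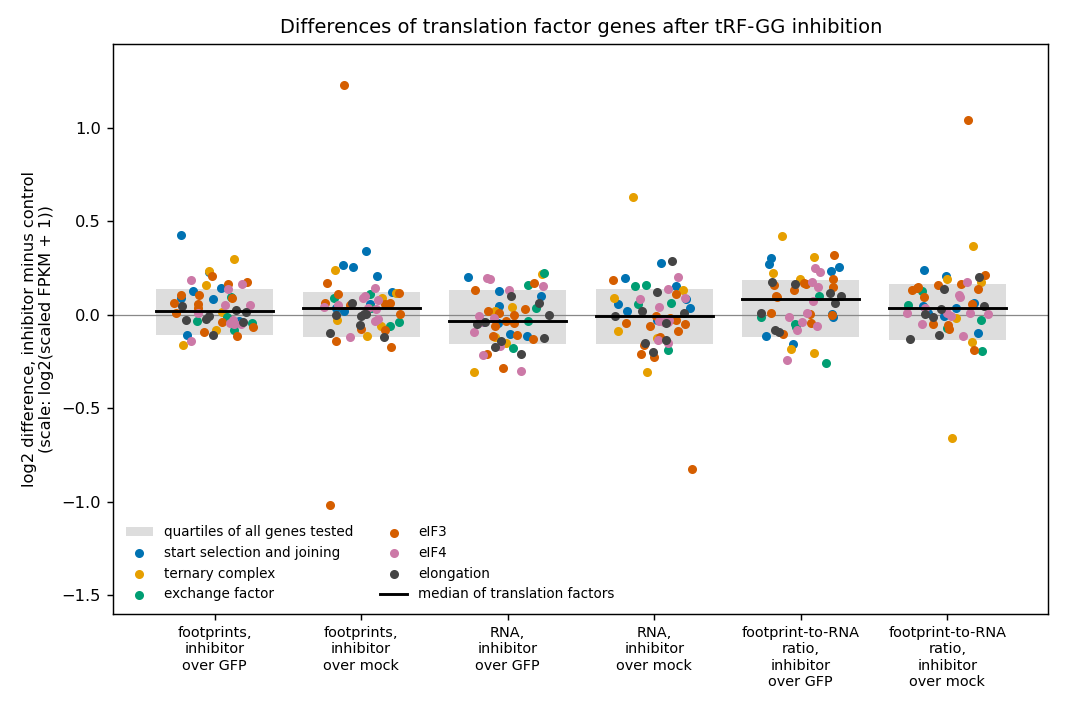
Log2 differences of the translation factor genes, inhibitor minus control (y axis, on the log2(scaled FPKM + 1) scale), in footprints, RNA and the footprint-to-RNA ratio, against GFP and mock, with 4 libraries per group. Dots are genes coloured by role, black lines their median and grey boxes the quartiles of all genes tested. The medians lie between -0.03 and 0.08, inside the quartiles of all genes. The dots past 0.8 in either direction are Eif3j1 and Eif3j2.

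Among the start selection genes, Eif1ax was the one translation factor gene whose footprint libraries did not overlap between inhibitor and either control. It had 81.2, 81.3, 82.7 and 78.3 scaled FPKM in inhibitor footprints 1 to 4, against 75.8, 76.9, 71.8 and 68.7 in GFP and 74.1, 71.6, 71.1 and 53.5 in mock. Every inhibitor library was above all 8 control libraries. Its autosomal copy Eif1a had 27.8, 25.9, 22.6 and 28.7 in inhibitor footprints, within the control range of 18.9 to 32.6. Any reads shared by the 2 copies were divided by an estimate. Of all genes, 1.22% did not overlap in this direction against GFP, 0.947% against mock and 0.356% against both. The difference was 0.14 (SE 0.13) from GFP and 0.27 (SE 0.13) from mock, with a limma adjusted p of 1 in both.

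The RNA of Eif1ax did overlap, with 46.1, 69.6, 56.4 and 49.8 scaled FPKM in inhibitor libraries, 75.3, 70.2, 48.2 and 48.7 in GFP and 61.9, 51.5, 45.8 and 52.5 in mock. Its ratio difference was 0.26 (SE 0.23) from GFP and 0.21 (SE 0.23) from mock. In RNA 0 of 53 genes were without overlap in either direction, where 1.09% to 1.22% of all genes were against GFP or mock alone, and 0.494% (higher) and 0.390% (lower) were against both. In footprints no member was lower without overlap, where 0.872% of all genes were against GFP, 1.07% against mock and 0.394% against both. Over all 8 start selection genes the footprint differences from mock ran from 0.02 to 0.34, and those from GFP from -0.11 to 0.43, with 6 of them above 0. The largest was that of Eif1b, with 6.93, 9.60, 15.0 and 7.37 scaled FPKM in inhibitor footprints against 5.33, 7.06, 7.82 and 6.63 in GFP and 6.86, 6.43, 5.46 and 10.6 in mock. Its groups overlapped, and the differences were 0.43 (SE 0.24) and 0.34 (SE 0.24). In RNA the Eif1b difference from mock was 0.28.

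In and beside the ternary complex, Eif2a, which can carry the initiator tRNA apart from eIF2, had 29.6, 27.6, 25.8 and 28.1 scaled FPKM in inhibitor footprints, against 30.3, 23.2, 19.7 and 17.8 in GFP and 25.6, 28.4, 23.6 and 17.3 in mock. GFP 1 and mock 2 reached the inhibitor range and the other 6 controls lay below it. The footprint difference was 0.30 (SE 0.18) from GFP and 0.24 (SE 0.18) from mock, and the ratio difference 0.42 (SE 0.37) from GFP, none past the threshold. Eif2d, which acts in initiator tRNA delivery and ribosome recycling without GTP, had the smallest p on the other side, at -0.16 (SE 0.15) in footprints and -0.18 (SE 0.22) in the ratio from GFP. Eif2s3y had the largest RNA difference above 0 from mock, 0.63, which ran from 0.056 to 1.13 with 1 library left out. Its ratio difference from mock was -0.66, and neither passed. In eIF2B the differences from GFP ran from -0.08 to 0.09 in footprints and from -0.18 to 0.22 in RNA, where Eif2b5 had 0.16. The largest ratio difference there, that of Eif2b3, was -0.26 (SE 0.42) from GFP and -0.19 (SE 0.42) from mock, and without inhibitor footprint 3 it was 0.02 and 0.09.

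In eIF3, Eif3h, an MPN domain subunit, had 84.3, 74.2, 86.8 and 82.4 scaled FPKM in inhibitor footprints, against 70.3, 76.7, 69.7 and 66.4 in GFP and 75.6, 77.5, 77.5 and 71.9 in mock. Inhibitor 2 lay within the control range and the other 3 above it. The difference from GFP was 0.21 (SE 0.12), and in the ratio 0.32 (SE 0.21). Eif3c, a core scaffold, had 124, 134, 132 and 142 scaled FPKM in inhibitor RNA, against 172, 140.3, 144 and 162 in GFP and 178, 133, 159 and 155 in mock. Inhibitor 1 and 3 lay below every control library and the other 2 within the control range, with differences of -0.21 (SE 0.15) and -0.22 (SE 0.15). Eif3k was at -0.29 (SE 0.24) in RNA from GFP, and Eif3i at -0.17 in footprints from mock.

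In the eIF4 group, Eif4h was among the 3 genes with the smallest p above 0 in RNA against both controls, at 0.19 (SE 0.22) from GFP and 0.20 (SE 0.22) from mock. Its inhibitor values were 137, 126, 127 and 195 scaled FPKM, against 122, 84.4, 139 and 175 in GFP and 121, 111, 133 and 137 in mock. With FPKM as deposited both differences were below 0. Eif4enif1 had -0.22 (SE 0.18) in RNA and -0.14 (SE 0.14) in footprints from GFP, and Eif4g2 0.20 (SE 0.22) in RNA.

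Among the elongation factors Eef1a1 had 2796, 2976, 3024 and 2731 scaled FPKM in inhibitor RNA, against 3318, 3499, 3172 and 3007 in GFP and 3521, 3206, 3516 and 3014 in mock. Inhibitor 3 alone overlapped the controls. The RNA difference from mock was -0.20 (SE 0.15) and took the opposite sign (0.31) under quantile normalization. Its footprints were 2083, 2134, 3235 and 2285 in inhibitor, 2134, 2272, 3534 and 1955 in GFP and 2428, 2169.9, 3314 and 1866 in mock, with the highest value at number 3 in each group. Eef2k had -0.11 (SE 0.13) in footprints from GFP and -0.12 (SE 0.13) from mock.

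The pair Eif3j1 and Eif3j2, for the loosely bound j subunit, gave the largest differences from mock in footprints and RNA, and these rest on 1 library of each assay. In footprints Eif3j2 had 19.7, 14.3, 16.4 and 16.6 scaled FPKM in inhibitor, 16.8, 14.3, 16.2 and 15.1 in GFP, and 0, 15.3, 13.4 and 12.5 in mock libraries. Eif3j1 had at most 0.0809 in inhibitor and 0.0512 in GFP libraries, against 17 in mock footprint 1, where Eif3j2 is listed at 0, and at most 0.0299 in the other mock libraries. In RNA, mock RNA 4 had 8.19 for Eif3j1 beside 23.8 for Eif3j2, while the other RNA libraries had at most 0.0890 for Eif3j1.

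In mock footprint 1 the deposited value thus stands on Eif3j1 in place of Eif3j2. The footprint differences of inhibitor from mock were 1.23 (SE 0.74) for Eif3j2 and -1.02 (SE 0.79) for Eif3j1. In RNA the difference of Eif3j1 from mock was -0.83. With the copies added, a choice made after the values were seen, the level was 16.8 ± 2.22 scaled FPKM in inhibitor, 15.6 ± 1.08 in GFP and 14.6 ± 1.97 in mock footprints (SD, n = 4 each), and the difference from mock 0.19 (SE 0.14). Added up, their RNA was 33.2 ± 11.7 in inhibitor, 30.2 ± 12.2 in GFP and 29.9 ± 4.74 in mock libraries.

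GFP against mock compares the controls with each other. Again 0 of 52 genes passed in footprints, 0 of 53 in RNA and 0 of 52 in the ratio by limma, where 0.00938%, 0% and 0% of all genes passed, and 0 members had an unadjusted p under 0.05, beside 0.450%, 0.526% and 0.372% of all genes. The medians were -0.01 in footprints (-0.01 over all genes), 0.01 in RNA (0.00) and -0.03 in the ratio (-0.02). The smallest p in each direction belonged to the Eif3j pair in footprints, to Eif1ax (0.17, SE 0.20) and Eif3j1 in RNA, and to Eif3j2 and Eef1e1 (-0.28, SE 0.36) in the ratio. No member was without overlap between GFP and mock, where 0.119% to 0.263% of all genes were in either direction.

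The spread within groups was uneven. Over members with a mean of at least 5 scaled FPKM, the SD within a group on the log2 scale had a median of 0.25 in footprints (47 genes) and 0.33 in RNA (48 genes). Apart from Eif3j2, the most variable gene in both assays was Eif4a2, with 0.60 in footprints and 0.75 in RNA. Its RNA was 99.9, 260.2, 83.1 and 85.1 scaled FPKM in inhibitor, 68.7, 305, 104 and 93.8 in GFP and 83.7, 183, 106 and 128 in mock libraries, highest at number 2 in each.

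Eif4a2 footprints were 78.0, 35.7, 28.8 and 54.0 in inhibitor, 66.4, 34.0, 23.5 and 47.8 in GFP and 36.8, 67.2, 28.5 and 52.4 in mock libraries. They were highest at number 1 in inhibitor and GFP and at number 2 in mock. The same 3 libraries were the highest in 11 of the 47 genes, counting Eif4a2, among them Eif2a, Eif3a, Eif3e and Eif5b. The share over all genes was not counted, so the 11 cannot be read as a trait of the group. Eif2s3y footprints were highest in these 3 libraries too, at 8.2, 1.93, 1.64 and 3.46 scaled FPKM in inhibitor footprints, 8.82, 3.07, 1.28 and 2.35 in GFP and 3.89, 7.71, 1.26 and 2.54 in mock. In its RNA the high libraries were numbered 2, with 8.61 in inhibitor, 13.5 in GFP and 8.49 in mock. The Y-linked helicase gene Ddx3y had its highest footprint levels in the same 3 libraries, 3.50 in inhibitor, 3.77 in GFP and 3.67 in mock.

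**Figure D5:**
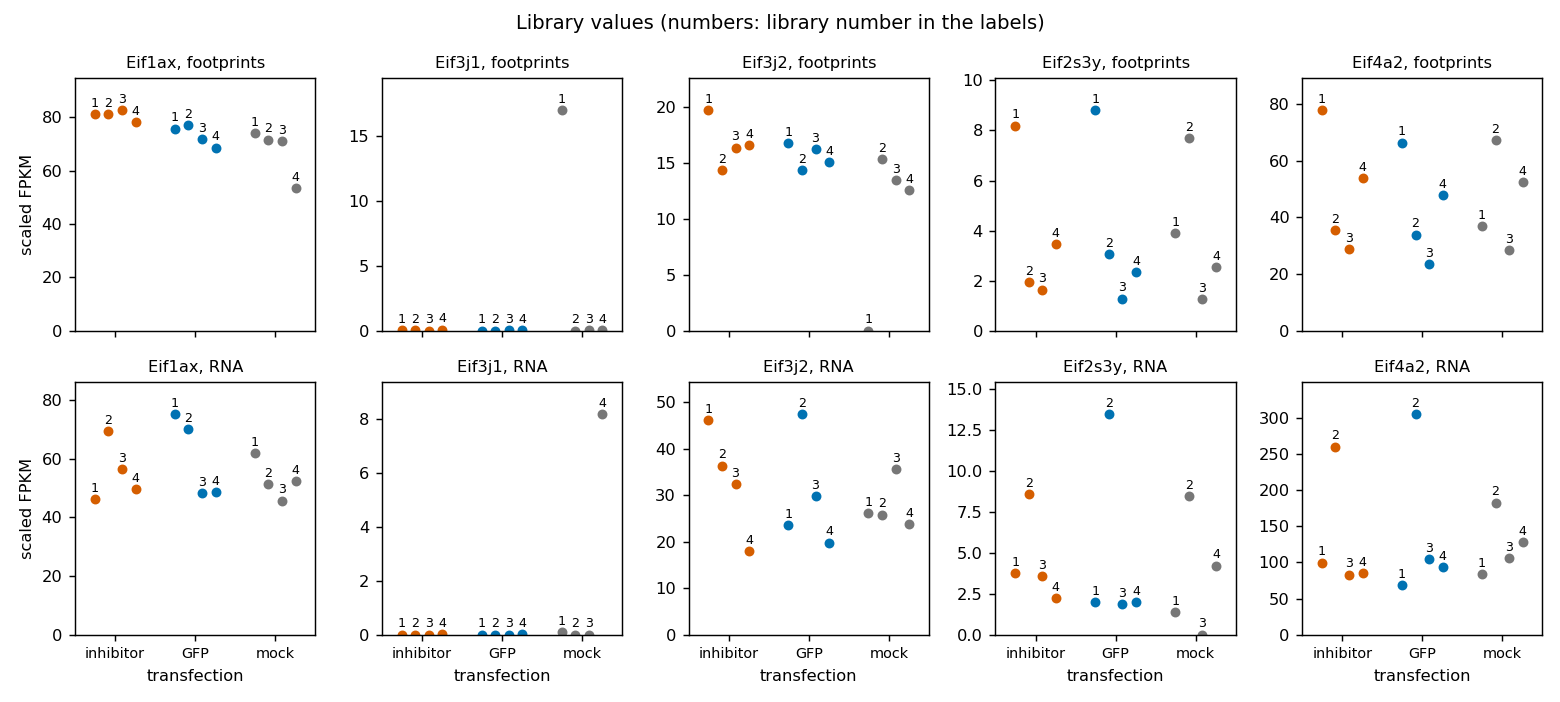
Scaled FPKM (y axis) of Eif1ax, Eif3j1, Eif3j2, Eif2s3y and Eif4a2 in each library, footprints above and RNA below, by transfection, with the library number over each point. Eif1ax footprints lie higher in all 4 inhibitor libraries than in the 8 controls, mock footprint 1 alone carries Eif3j1 in place of Eif3j2, and Eif4a2 RNA is highest at number 2 in each group.

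The other genes of the pathway were a list of 45: the eIF2 kinases and phosphatase subunits, eIF4E-binding proteins, mTOR and its targets, poly(A)-binding proteins, recycling and release factors, and mitochondrial translation factors. All 45 were tested, and 0 passed in any of the 6 inhibitor comparisons, with medians between -0.03 and 0.01. In the control ratio 10 of 45 were above the median gene and 16 of 45 below, where 24.2% of all genes were above and 27.7% below, with a list median of -0.21. The lowest were the eIF4E kinase Mknk2 (-1.56), the eIF2 phosphatase subunits Ppp1r15b (-1.28) and Ppp1r15a (-1.18), and the TOP mRNA-binding protein Larp1 (-1.22). The highest were Mcts2 (1.20), Pdcd4 (1.15), an inhibitor of the helicase eIF4A, and Mcts1 (1.01), a factor of ribosome recycling of which Mcts2 is a retrocopy, so that reads may have been split between them.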

How the data were processed

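FPKM per gene, estimated with RSEM, were deposited by the authors in one table for footprints and one for RNA, per the file headers. The submitters' processing notes name RSEM, Bowtie2, TopHat, CASAVA 1.8.2 and the build mm10, with no settings. FPKM are relative to each library's total, so ribosomal RNA lowers all other values. FPKM were scaled by a median of ratios over genes at 5 FPKM or more in each library (2960 in footprints, 1717 in RNA). Genes with a mean of at least 0.5 scaled FPKM were tested (10661 in footprints, 12557 in RNA, 10489 in both) on log2(scaled FPKM + 1), which understates changes of low genes, with limma 3.58.1 in R 4.3.3 (trended, robust, two-sided), all 3 transfections sharing an estimate of spread. P-values were adjusted by Benjamini-Hochberg over all genes, with a threshold of 0.05. The footprint-to-RNA ratio was the interaction term over 24 libraries, and in controls a contrast over 16 libraries. Depth was estimated from the steps between low values, and 58 of 66 footprint pairs and 59 of 66 RNA pairs lay within 0.1 (log2) of the fit. No 2 libraries held identical values. The fit was tested on simulated data.

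Members and lists were chosen with earlier results of these data known. Genes named are, for each inhibitor comparison, those past the threshold and the 3 with the smallest p in each direction, for GFP against mock the smallest p in each direction, for the control ratio the 5 highest and 5 lowest with a mean of at least 5 scaled FPKM in both tables, and for levels the 5 highest and the paralogue pairs. Others were chosen after their values were seen. All 56 members matched the RefSeq table of GRCm38.p6. Equal library numbers deviated together in all pairs of RNA groups (correlations across genes of 0.32 to 0.78) and between inhibitor and GFP footprints (0.45 to 0.81), which by a limit of 0.1 pairs these groups. Not every number did so between inhibitor and mock (lowest -0.18) or GFP and mock footprints (lowest 0.06). There numbers 3 and 4 deviated together (0.38 to 0.84), while 1 and 2 were crossed. Alternatives were the pseudocount, the filter, the scaling, the spread estimate, the samples fitted, the replicate block and each library left out. Python 3.11.15, numpy 2.4.6, pandas 2.3.3 and matplotlib 3.10.9 were used.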

Additional observations from a re-analysis of the deposited data

Results flagged for a closer look

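In 138 groups of 4 libraries (the genes named by the rule, in the assays it named them for), 13 held a library whose gap to the nearest other library, divided by the range of the group, exceeded Dixon's critical value for 4 samples. Chance alone flags about 1 group in 20. Library 2 of a group stood apart for Eif4a2 RNA in inhibitor (260.2 scaled FPKM, the others 83.1 to 99.9) and in GFP (305, the others 68.7 to 104), for Eif2s3y RNA in GFP (13.5, the others 1.86 to 1.99) and for Eif2b5 RNA in GFP (41.5, the others 53.8 to 56.2). Library 3 stood apart for Eif4h footprints in GFP (65.0, the others 39.1 to 43.5) and in mock (59.0, the others 36.5 to 39.2). Library 4 stood apart for Eif4h RNA in inhibitor (195, the others 126 to 137), Eif1 footprints in GFP (128, the others 177 to 186), Eif4enif1 RNA in GFP (18.4, the others 16.8 to 16.9) and Eif1ax footprints in mock (53.5, the others 71.1 to 74.1). For Eif3j1 the libraries apart were mock footprint 1 (17, the others 0.00713 to 0.0299), mock RNA 4 (8.19, the others 0 to 0.0890) and GFP RNA 4 (0.0139, the others 0).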

How the results depend on the processing

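No translation factor gene passed in any comparison of transfections under any alternative run, and with the replicate block 0 members passed in each. The count of members in the control ratio was 35 of 52, where 51.9% of all genes passed, and 40 of 52 with the replicate block, where 61.0% did. It was 22 of 52 with a pseudocount of 5 (26.2% of all genes above and 27.6% below). With FPKM as deposited it was 13 of 52 (12.9% and 15.0%). It was 18 with GFP libraries alone and 30 to 35 when a single library was left out, where the share of all genes was not recorded. The block, set within each assay, changed the call of Eif4a2 in the control ratio (limma adjusted p = 0.00632) and of no other gene named there. Over all genes the block moved the calls of inhibitor against GFP from 1 to 8 in footprints and from 2 to 32 in RNA, and of inhibitor against mock from 0 to 2 in footprints and from 3 to 34 in RNA. That fit holds all 3 transfections. With the block over the 2 compared alone, the calls against GFP were 45 in footprints and 18 in RNA. Against mock they were 1 and 15. Mock footprints 3 and 4 deviated with their own numbers in GFP (r = 0.84 and 0.75 across genes) and inhibitor footprints (0.60 and 0.38). Mock footprint 1 went with number 2 of GFP and inhibitor footprints (0.77 and 0.56), and mock footprint 2 with number 1 (0.82 and 0.77). For numbers 1 and 2 the block is therefore not a pairing with mock footprints, also in the control ratio. FPKM as deposited moved the members' medians to -0.53 (inhibitor against GFP), -0.28 (inhibitor against mock) and 0.27 (GFP against mock) in RNA and to 0.49, 0.28 and -0.22 in the ratio, where the medians of all genes moved alike, to -0.39, -0.19, 0.21, 0.39, 0.20 and -0.20. It also turned the signs of Eif2b5 (-0.37), Eif4g2 (-0.35) and Eif4h (-0.36) in RNA against GFP, of Eif4h (-0.090) in RNA against mock, of Eif2d (0.27), Eif4h (0.23) and Eif2b3 (0.16) in the ratio against GFP, and of Eif2d (0.11) and Eif2b3 (0.040) in the ratio against mock. Quantile normalization turned Eef1a1 in RNA against mock (0.31), and leaving out inhibitor footprint 3 turned Eif2b3 in the ratio (0.023 against GFP and 0.089 against mock, the highest values with 1 library left out, the lowest being -0.45 and -0.36). The cause was not tested. Of the other recomputed values of named genes 1188 kept direction and call, 9 gained and 4 lost a call. In the fit without the block, intervals of RNA and ratio differences reached past 1.5-fold for most members. The block changed the SE of RNA differences from GFP, from 0.454 to 0.205 for Eif4a2 and from 0.168 to 0.157 for Eif3i. Intervals with the block were not counted.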
